A study of Homo sapiens with 17 samples.

Results

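The GADD45 genes GADD45A, GADD45B and GADD45G encode small acidic proteins of the growth arrest and DNA damage family. They carry no enzyme activity of their own and act by binding partners, among them the kinase MAP3K4 upstream of the p38 and JNK kinases, the cyclin B1 complex with CDK1, PCNA and the cell cycle inhibitor CDKN1A. All 3 are induced by many stresses, and their mRNAs are known to turn over quickly. GADD45A mRNA, and in some systems GADD45B mRNA, is also a known target of nonsense-mediated decay, the pathway that removes mRNAs on which translation ends in an unfavorable setting. The members were taken by symbol from the read table of the 1 h experiment, where 3 of 3 had rows among 19222 genes.

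HEK-293T cells, an established human line of embryonic kidney origin, were used without genetic change (labeled wild-type), and emetine is an alkaloid that halts ribosomes during elongation. In the 1 h experiment, 3 libraries came from cells given 500 µM 4-thiouridine (s4U) alone (untreated) and 3 from cells given 500 µM s4U together with 1.8 µM emetine. A single untreated and a single emetine library had no s4U. The 2 h experiment (250 µM s4U, with 0, 1.8 or 240 µM emetine) was deposited as tables of 9982 genes in which these symbols have no row, so the GADD45 genes are not analysed here at 2 h. The uridine analog s4U enters RNA made during the hour, and TimeLapse chemistry turns it into apparent T-to-C conversions. The reads of 1 gene can thus be divided into labeled ones, taken as new, and unlabeled ones, taken as old.

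The 8 libraries held 27416189 to 48852046 reads, of which 81.1% to 82.3% fell to a single gene. Emetine replicate 3 stood apart. Its deviations from the emetine mean had an SD of 0.27 on the log2 scale over 11514 genes, against 0.15 and 0.16 in emetine replicates 1 and 2 and 0.10 to 0.12 in the untreated libraries. They followed transcript length with a Spearman rho of 0.755 across genes, against -0.677 and -0.672 in emetine replicates 1 and 2, which share that mean, and -0.228 to 0.167 in the untreated libraries. The tests across genes are therefore also given without it for the members. Of 6 genes that mark HEK-293T cells, including VIM and the neurofilament genes NEFL and NEFM, all 6 passed the count filter. Of 5 markers of other cell types, only GFAP passed, at 0.71 to 1.13 CPM (counts scaled to library size) as group means, and PTPRC and INS had no row.

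The members are compact genes with 4 exons each in their reference transcript (GENCODE 44, build GRCh38). GADD45A (ENSG00000116717.13) lies on the plus strand of chromosome 1 from 67685201 to 67688334, GADD45B (ENSG00000099860.9) on the plus strand of chromosome 19 from 2476122 to 2478259, and GADD45G (ENSG00000130222.11) on the plus strand of chromosome 9 from 89605012 to 89606555. Their transcripts of 1352, 1371 and 1066 bases, in that order, stand at the 12.1, 12.5 and 7.28 percentile of transcript length among coding genes of the table, whose median is 3215 bases. They encode 165, 160 and 159 amino acids. The share of G or C at the last base of a codon was 73.5% in GADD45A, 81.3% in GADD45G and 86.3% in GADD45B, each above the median of 60.9% over coding genes.

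The 3′ UTRs differed in matches to ATTTA, a motif found in AU-rich elements, which are binding sites of mRNA decay factors. That of GADD45A, 560 bases long, held 2 copies of ATTTA, and those of GADD45B (656 bases) and GADD45G (476 bases) held 0. Over coding genes, 70.6% of 3′ UTRs held the motif, and 40.7% of the 3856 between 150 and 600 bases did. The 3′ UTR of GADD45B is longer than this range. A match describes letters, not an element known to act. Both GADD45A sites are shown with the motif in capitals, since GADD45A was the member that held them. The longer motif TATTTAT was in 1 copy in GADD45A, around the second site, and in 0 copies in GADD45B and GADD45G, against 34.1% of all 3′ UTRs and 11.05% of those between 150 and 600 bases.
GADD45A, 3′ UTR bases 269 to 293: ctatgtattaATTTAgaatggttga
GADD45A, 3′ UTR bases 488 to 512: atgaaaagttATTTAtgctataaat

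Promoters were held in the RefSeq set (GRCh38.p14) for GADD45B and GADD45G. The 180 bases before each start, on the plus strand, are shown for these members, which share the order of their motifs. A link of these motifs to the change in level was not tested. The capitals mark, from left to right, an E-box motif, the CCAAT boxes and a TATA motif, whose letters are given with their positions after the sequences.
GADD45B, chr19:2475947-2476126: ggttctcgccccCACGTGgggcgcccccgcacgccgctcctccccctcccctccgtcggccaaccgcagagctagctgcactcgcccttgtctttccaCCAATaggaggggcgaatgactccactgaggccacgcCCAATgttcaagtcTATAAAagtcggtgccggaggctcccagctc
GADD45G, chr9:89604832-89605011: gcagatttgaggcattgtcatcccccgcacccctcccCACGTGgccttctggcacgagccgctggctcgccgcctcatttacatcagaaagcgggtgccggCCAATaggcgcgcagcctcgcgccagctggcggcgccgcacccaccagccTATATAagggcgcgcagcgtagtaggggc

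In GADD45B the motifs began 168 (CACGTG), 82 and 45 (CCAAT) and 31 (TATAAA) bases before the start. In GADD45G they began 143 (CACGTG), 79 (CCAAT) and 29 (TATATA) bases before it. Motifs were searched on both strands in the 250 bases before and 50 bases after each start. Of 35116 RefSeq promoters of that length, 7.26% held the E-box motif, 34.6% the CCAAT box, 11.5% the TATA motif of GADD45B and 3.99% that of GADD45G, and 74 (0.211%) held an E-box, a CCAAT box and either TATA motif together, a combination chosen after the GADD45 promoters had been read. The letters TGACTCA, TGACGTCA and GGGCGG, present in 4.95%, 1.85% and 45.0% of promoters, were in neither window. The TATAAA and TATATA motifs can overlap each other, and a match describes letters, not a bound site.

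The first comparison asks how 1 h of emetine changed transcript levels. Every member was raised: GADD45G 3.47-fold, GADD45B 2.47-fold and GADD45A 2.36-fold. Over all genes tested, 363 of 13776 were raised (2.64%) and 6 (0.0436%) were lowered at an adjusted p under 0.05, and the 3 members took ranks 14, 47 and 66 by log2 fold change. Removing a trend on transcript length and GC content gave 742 raised and 650 lowered genes, and DESeq2 gave 820 and 156. In these bulk samples, more cells with a transcript and more of it per cell cannot be told apart.

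GADD45A, which binds MAP3K4, CDK1 and PCNA, was read at 8.82, 7.56 and 9.63 CPM in untreated replicates 1 to 3 and at 24.7, 20.5 and 15.8 CPM in emetine replicates 1 to 3. Each emetine library exceeded each untreated one, and the means were 8.67 ± 1.04 and 20.3 ± 4.47 CPM (SD, n = 3). The log2 fold change was 1.24 (SE 0.18, adjusted p = 0.0134, edgeR quasi-likelihood test). These values rest on 204 to 264 reads in the untreated and 421 to 866 reads in the emetine libraries.

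GADD45B, best known as an early response gene of NF-κB and TGF-β signaling, was read at 10.3, 9.80 and 11.8 CPM in the untreated and at 32.4, 26.2 and 20.0 CPM in the emetine libraries. The groups did not overlap, with means of 10.6 ± 1.07 and 26.2 ± 6.17 CPM (SD, n = 3). The log2 fold change was 1.30 (SE 0.18, adjusted p = 0.0113, edgeR).

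GADD45G, the member with the lowest level in these cells, had 27, 19 and 16 reads in the untreated libraries and 138, 82 and 48 in the emetine libraries. Scaled, these are 0.968, 0.544 and 0.755 CPM against 3.94, 2.05 and 1.80 CPM. The groups again did not overlap, with means of 0.756 ± 0.212 and 2.60 ± 1.17 CPM (SD, n = 3), and the log2 fold change was 1.80 (SE 0.38, adjusted p = 0.0447, edgeR). Scaling by RLE size factors in place of TMM moved that adjusted p to 0.0516, so the call for GADD45G stood at the threshold.

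Among all genes tested, 19.5% were higher in every emetine library than in every untreated one, as these members were. In each of the 3 genes, emetine replicate 3 had the lowest level of its group. Without it, the log2 fold changes were 1.40 for GADD45A, 1.47 for GADD45B and 2.00 for GADD45G, with adjusted p of 6.74e-06, 2.08e-06 and 0.00163 (edgeR). With any 1 untreated library left out, the adjusted p rose to between 0.0757 and 0.108 for GADD45A, between 0.0731 and 0.0964 for GADD45B and between 0.149 and 0.209 for GADD45G, while only 4 to 18 genes in all were still raised. Without emetine replicate 1, GADD45G stood at a log2 fold change of 1.36 with an adjusted p of 0.0867.

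**Figure D1:**
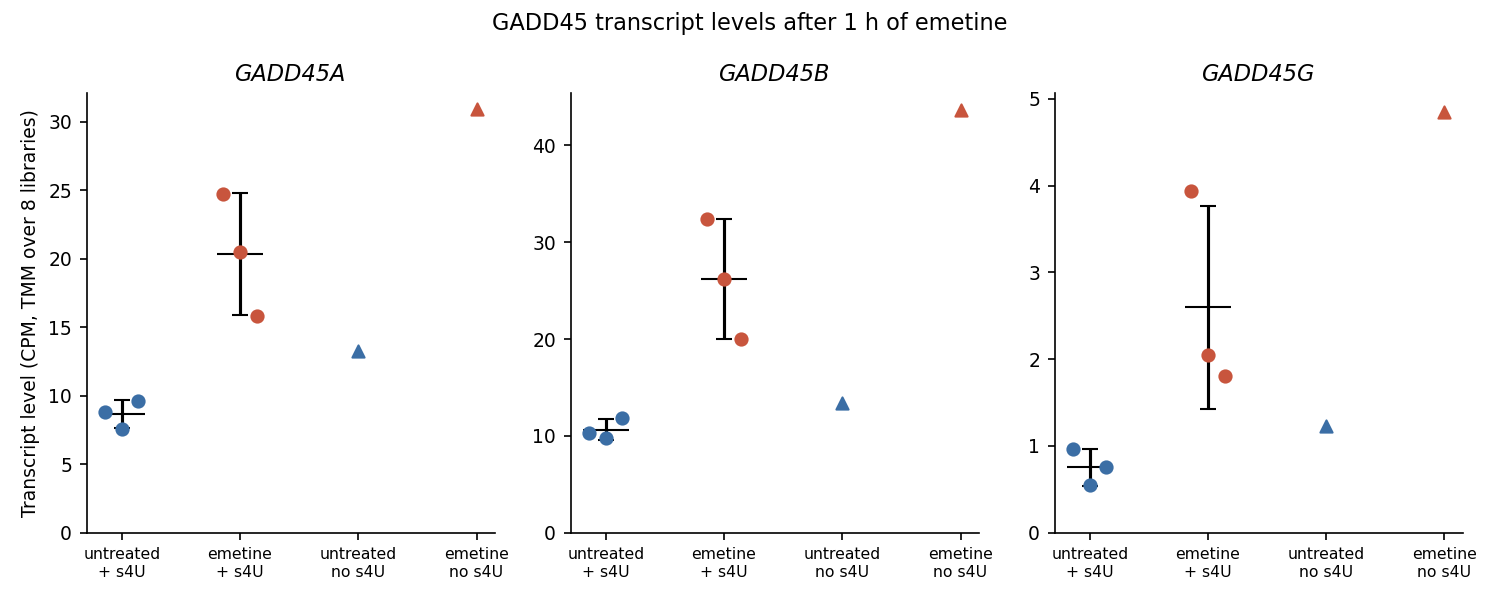
Transcript level in CPM (linear axes from 0, a separate scale for each gene) in each of the 8 libraries of the 1 h experiment, circles with s4U and triangles without, blue untreated and red emetine, with black bars for mean and SD of the 3 libraries with s4U. In each gene the 3 red circles lie above the 3 blue ones, and each triangle lies above the circles of its own treatment.

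Per kilobase of transcript, the untreated levels were 7.76 ± 0.78 CPM per kb for GADD45B, 6.41 ± 0.77 for GADD45A and 0.709 ± 0.199 for GADD45G (SD, n = 3). The order in emetine was the same, at 19.1 ± 4.50, 15.0 ± 3.30 and 2.44 ± 1.10 CPM per kb. GADD45B and GADD45A were neighbors whose SD ranges touched, whereas GADD45G was far below both.

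A ratio of 2 members within a library needs no scaling. The log2 ratio of GADD45B to GADD45A counts was 0.22, 0.37 and 0.30 in the untreated and 0.39, 0.35 and 0.34 in the emetine libraries, a difference of 0.06 (SE 0.05, two-sided exact permutation p = 0.3). For GADD45G to GADD45A the difference was 0.52 (SE 0.27, exact permutation p = 0.2), and for GADD45G to GADD45B it was 0.45 (SE 0.30, exact permutation p = 0.3). An exact test of 3 libraries against 3 cannot go below 0.1, so it could not pass 0.05 for any pair at any depth. Whether the members rose by different amounts is therefore not decided by it. The ratios with GADD45G also rest on its few reads.

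The second comparison asks how much of each transcript pool was made within the hour. In untreated cells most GADD45 reads were new, and in emetine a smaller share was. The fraction new, estimated per gene and library from the conversions, fell in GADD45A and GADD45B past the test, as it did in 520 of 10763 genes tested (4.83%), while it rose in 23 (0.214%). With each library centered on its median over genes, the counts were 748 and 126.

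The fraction new of GADD45A was 59.5%, 81.7% and 81.0% in the untreated and 48.2%, 43.97% and 51.5% in the emetine libraries. The highest emetine value lay under the lowest untreated one, although the 95% intervals of those libraries overlapped (52.8% to 66.0% in untreated replicate 1, 46.2% to 56.9% in emetine replicate 3). The means were 74.0 ± 12.6% and 47.9 ± 3.80% (SD, n = 3), and the logit fell by 1.19 (SE 0.26, adjusted p = 0.00232, limma). Leaving out untreated replicate 3 gave a logit change of -1.02 with an adjusted p of 0.147, and leaving out emetine replicate 3 gave -1.27 with 0.0114.

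In GADD45B the fraction new was 82.5%, 84.3% and 88.0% in the untreated and 68.8%, 62.5% and 71.0% in the emetine libraries. The groups were separate, with means of 84.9 ± 2.78% and 67.4 ± 4.41% (SD, n = 3), and the logit fell by 1.01 (SE 0.27, adjusted p = 0.0117, limma). This call was less firm than the one for the level: the adjusted p was 0.0627 without untreated replicate 2, 0.0930 without untreated replicate 3, and 0.113, 0.208 and 0.0642 without emetine replicates 1, 2 and 3, with logit changes between -1.10 and -0.88 over all 6 omissions.

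GADD45G had too few reads for the test across genes, which required 100 in each library. Its fraction new was at the upper bound of 100% in untreated replicate 1, with a lower 95% limit of 81.9%, and was 97.0% (77.7% at the lower limit) and 95.7% (68.5%) in untreated replicates 2 and 3. In emetine it was 52.8%, 57.8% and 84.1%, and the interval of the last value, 67.8% to 96.9%, reached those of the untreated libraries. The point estimates did not overlap between groups (exact permutation p = 0.1, the smallest possible). Of all genes tested, 16.8% had a fraction new lower in every emetine library than in every untreated one.

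**Figure D2:**
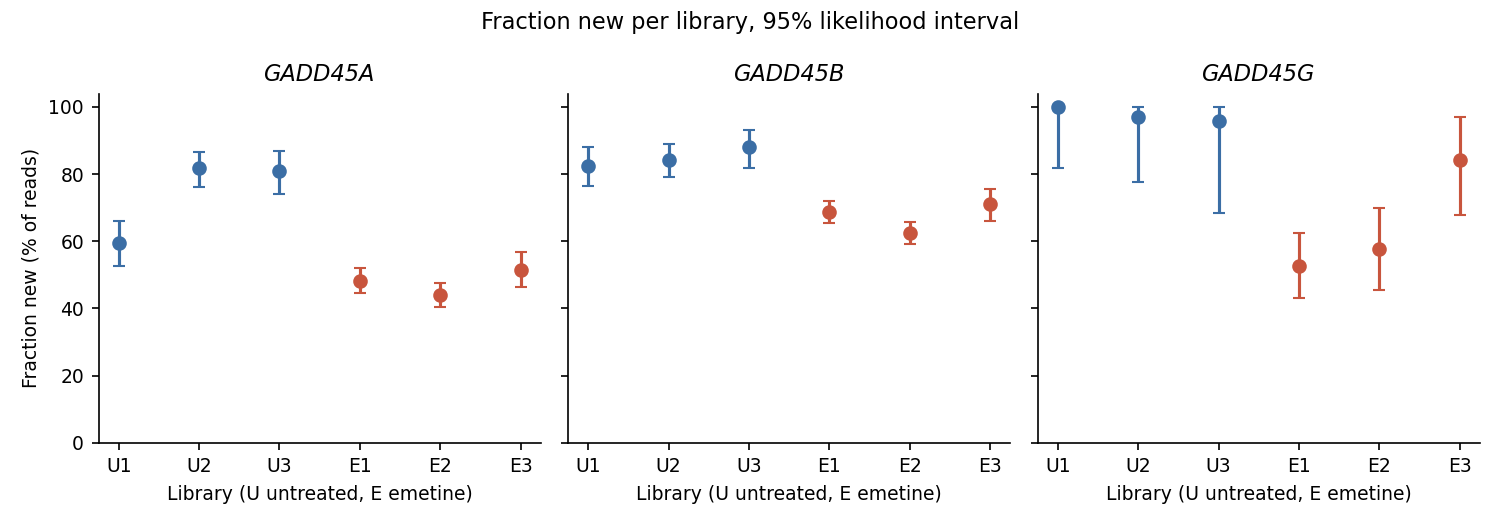
Fraction new in percent of reads for each gene and library (U1 to U3 untreated, E1 to E3 emetine), points with 95% profile likelihood intervals that cover counting error only. Emetine points lie below all untreated points in each gene, with intervals that are widest in GADD45G, where the libraries held 16 to 138 reads.

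In untreated cells these values were near the top of all genes: the mean fraction new of GADD45A exceeded 99.0% and that of GADD45B 99.6% of the 10763 genes tested, whose medians per library were 9.26% to 14.7%. If the pools were steady and s4U acted during the full hour, the untreated values correspond to half-lives of 46.1, 24.5 and 25.0 min for GADD45A and of 23.9, 22.5 and 19.6 min for GADD45B. For GADD45G only an upper limit was informative, at 24.3, 27.7 and 36.0 min in the 3 untreated libraries. In emetine, GADD45A and GADD45B still exceeded 98.1% and 99.5% of genes. No half-life is given for emetine, where the levels were not steady.

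Counts of reads without conversion need no mixture model. In GADD45A, 43.9%, 22.3% and 25.5% of untreated reads carried no conversion, against 55.5%, 57.4% and 53.7% of emetine reads. In GADD45B these shares were 31.4%, 25.7% and 25.9% against 41.1%, 44.04% and 40.5%. In GADD45G they were 5 of 27, 2 of 19 and 3 of 16 reads in the untreated libraries against 75 of 138, 40 of 82 and 15 of 48 in emetine. All emetine libraries thus had the larger share of reads without conversion in each gene. The share of all genes for which this held was not counted. Such shares also depend on the T positions in a read. In GADD45A these averaged 34.5, 39.5 and 34.3 in untreated and 30.5, 38.3 and 30.2 in emetine libraries. In GADD45B they averaged 27.4, 30.8 and 27.9 against 25.2, 29.8 and 24.3. The part of T positions in these shares was not tested. The share of reads with at least 2 conversions fell past the test in GADD45A (logit change -0.86, adjusted p = 0.00999, limma) and GADD45B (-0.79, adjusted p = 0.00921, limma). In GADD45G, by contrast, the groups overlapped by that measure, at 51.9%, 57.9% and 68.8% of untreated against 28.3%, 34.1% and 52.1% of emetine reads (exact permutation p = 0.2). Reads with at least 2 conversions numbered 112 to 168 in GADD45A and 158 to 205 in GADD45B per untreated library, and 0 in both libraries without s4U for each of the 3 members.

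**Figure D3:**
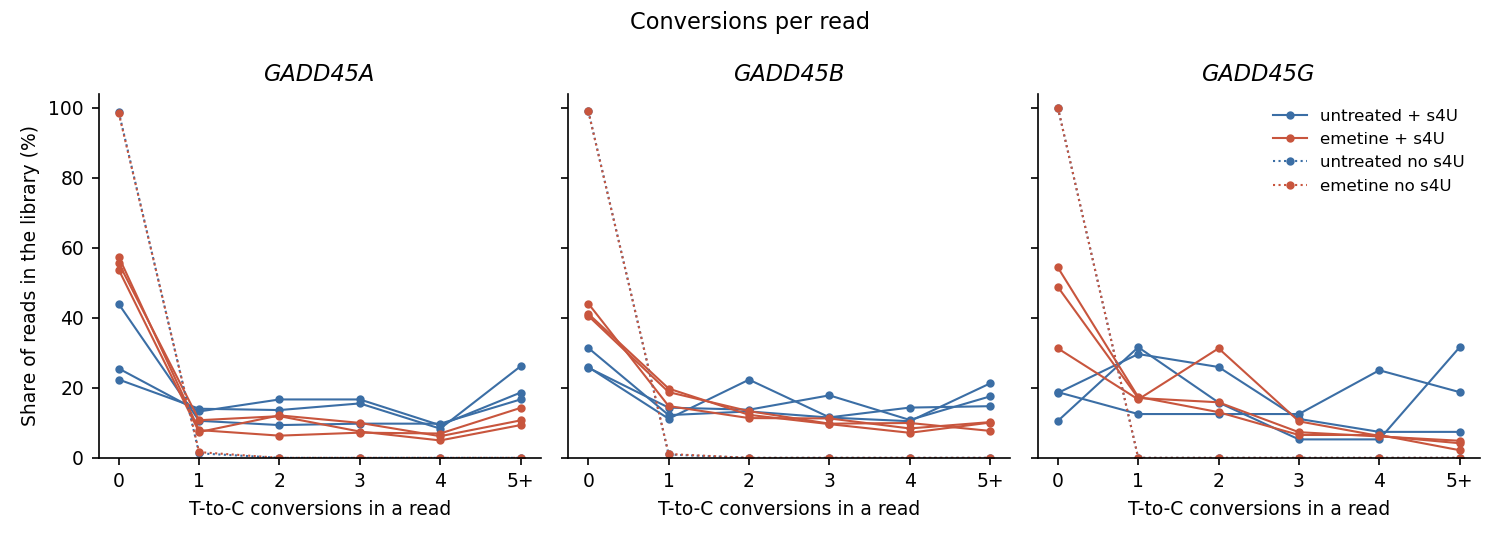
Share of a library's reads (percent) by the number of T-to-C conversions in the read, solid lines with s4U and dotted lines without, blue untreated and red emetine, 1 line per library. The dotted lines are at 98.4% to 100% for 0 conversions, and the red solid lines start above the blue ones in every gene.

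Next, the level was divided into labeled and unlabeled CPM (the level times the fraction new, and the rest). Unlabeled reads rose in GADD45A and GADD45B by about the same amount, and labeled reads rose past the test in GADD45B but not in GADD45A, a difference between members that was not tested. Of 10763 genes, 786 had raised unlabeled reads (7.3%), 28 had raised labeled reads (0.26%) and 14 had both (0.13%), while 10 had lowered unlabeled reads (0.0929%) and 68 lowered labeled reads (0.632%). Separation of the groups is given below for each member. The share of all genes that separate in this way was not counted for either read class.

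Unlabeled GADD45A was at 3.58, 1.38 and 1.83 CPM in the untreated and at 12.8, 11.5 and 7.66 CPM in the emetine libraries. The groups did not overlap, and the change was 2.06 on the scale of log2(CPM + 0.5) (SE 0.30, adjusted p = 0.00475, limma), or 2.27 without emetine replicate 3. Labeled GADD45A was at 5.24, 6.18 and 7.80 CPM against 11.9, 9.01 and 8.14 CPM, a change of 0.56 on that scale (SE 0.25) that did not pass the test (adjusted p = 0.322, limma), though the groups did not overlap. Without emetine replicate 3 it was 0.67 (adjusted p = 0.731). With the fraction new centered on each library's median it did pass, at 0.61 (adjusted p = 0.0388).

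Unlabeled GADD45B was at 1.80, 1.54 and 1.43 CPM in the untreated and at 10.1, 9.82 and 5.80 CPM in the emetine libraries, a change of 2.08 on the scale of log2(CPM + 0.5) (SE 0.22, adjusted p = 0.00130, limma), or 2.33 without emetine replicate 3. Labeled GADD45B was at 8.49, 8.26 and 10.4 CPM against 22.3, 16.4 and 14.2 CPM, a change of 0.90 (SE 0.24, adjusted p = 0.0250, limma). Both parts were higher in each emetine library than in each untreated one. The call for labeled reads was lost without untreated replicate 2 (adjusted p = 0.640), without emetine replicates 1, 2 or 3 (0.684, 0.156 and 0.0830), and where reads with at least 2 conversions were counted as labeled (0.0985). The change stayed between 0.67 and 1.04 in all alternatives run.

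Labeled GADD45G was at 0.968, 0.528 and 0.723 CPM in the untreated and at 2.08, 1.18 and 1.51 CPM in the emetine libraries. Its unlabeled part was at most 0.0326 CPM in any untreated library and at 1.86, 0.864 and 0.287 CPM in emetine. Both separated the groups, with an exact permutation p of 0.1 each, the smallest possible. No fold is given for unlabeled GADD45G, whose untreated values are below the worth of 1 read.

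**Figure D4:**
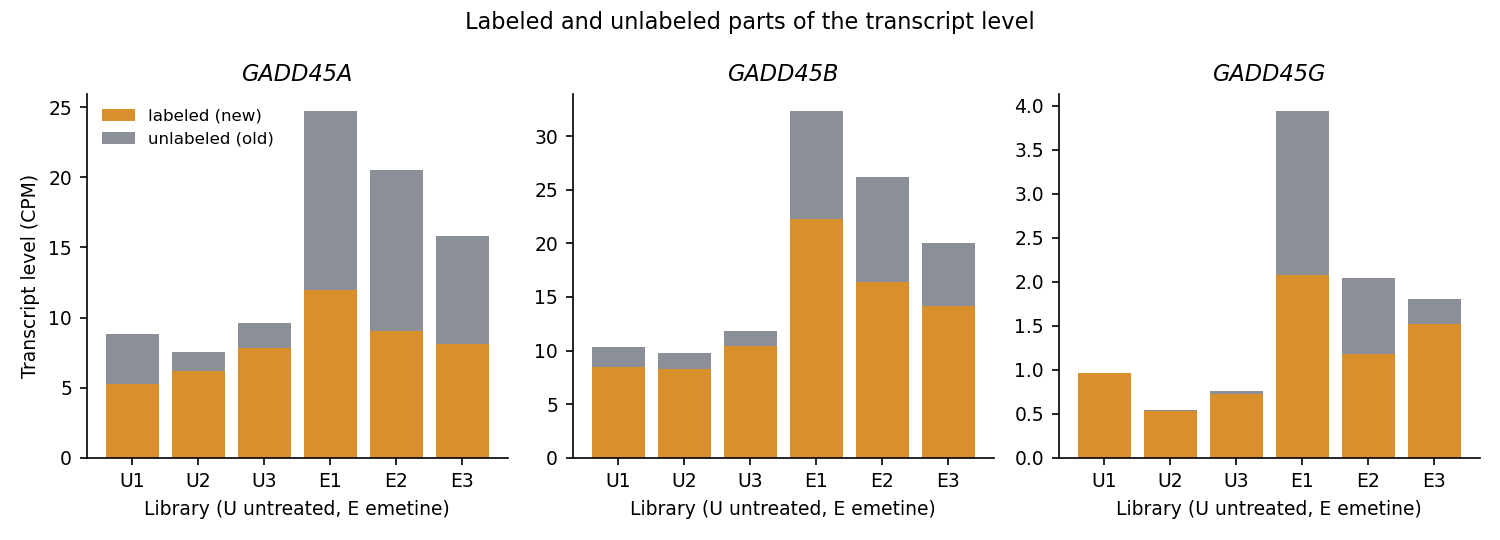
Transcript level in CPM as stacked bars from 0 for each library (U1 to U3 untreated, E1 to E3 emetine), orange for labeled and gray for unlabeled reads, a separate scale for each gene. The gray part is small in the untreated libraries of GADD45B and GADD45G and large in all emetine libraries of GADD45A and GADD45B.

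As a share of the mean untreated level, unlabeled GADD45A in emetine amounted to 148%, 132% and 88.3%. For GADD45B the shares were 94.8%, 92.3% and 54.5%, and for GADD45G 246%, 114% and 37.9%. Emetine replicate 3 was lowest in each gene. In emetine replicates 1 and 2 of GADD45A and GADD45G, the unlabeled reads alone exceeded the mean untreated level of all reads of the gene. Unlabeled CPM can therefore not be read directly as the amount of RNA made before the hour. The part of labeling and of scaling in this excess was not tested.

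A raised level with a lower fraction new was found in 147 of 10763 genes (1.37%), GADD45A and GADD45B among them. When raised labeled reads were required as well, 4 genes (0.0372%) remained: GADD45B, the zinc finger factor KLF6, the repressor SNAI2 and the pseudokinase TRIB1. The calls of GADD45B for the fraction new and for labeled reads were each lost in 6 of 12 alternatives, so its place here is not firm.

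**Figure D5:**
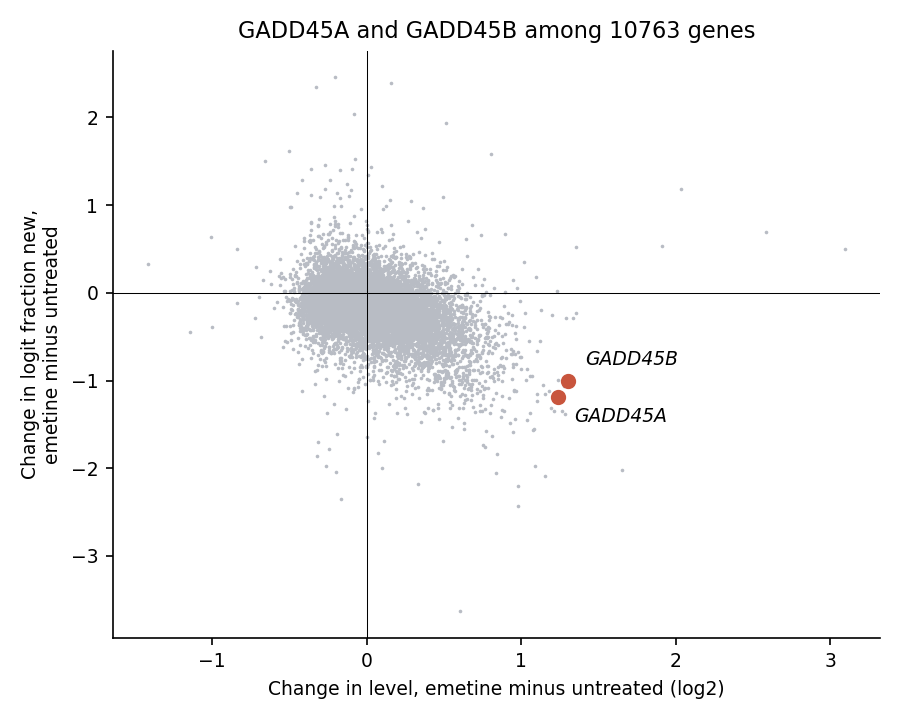
Change in level (log2, x axis) against change in the logit of the fraction new (y axis), emetine minus untreated, for 10763 genes in gray with GADD45A and GADD45B in red. Both members lie at the lower right, at 1.24 and -1.19 for GADD45A and at 1.30 and -1.01 for GADD45B.

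Libraries without s4U gave a separate look at the levels. In these, GADD45A was at 13.2 CPM untreated and 30.9 CPM in emetine, GADD45B at 13.4 and 43.6 CPM, and GADD45G at 1.23 and 4.85 CPM. With 1 library of each kind the folds of 2.33 for GADD45A (95% interval 2.05 to 2.66), 3.27 for GADD45B (2.89 to 3.70) and 3.94 for GADD45G (2.64 to 6.08) carry counting error only. The direction was the same as with s4U.

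Each of the 6 values without s4U also exceeded all 3 libraries of the same treatment with s4U. Within a treatment these values come from the same single library, and the share of all genes for which this held was not counted. Over 8 libraries, with emetine as a covariate, the log2 difference of libraries with s4U from those without was -0.61 in GADD45A (95% interval -0.96 to -0.25), -0.55 in GADD45B (-0.93 to -0.17) and -0.83 in GADD45G (-1.54 to -0.11). None passed the adjustment over 14102 genes (adjusted p = 0.783, 0.895 and 0.895, edgeR), and neither did any other gene, with 673 at an unadjusted p under 0.05. Without emetine replicate 3 the differences were -0.53, -0.46 and -0.70 (adjusted p = 0.0722, 0.110 and 0.387, edgeR). The interaction, which asks whether emetine acted differently with s4U, was 0.02 in GADD45A (95% interval -0.76 to 0.79), -0.40 in GADD45B (-1.18 to 0.38) and -0.18 in GADD45G (-1.82 to 1.46), with adjusted p of 0.986 to 0.997 (edgeR). Without emetine replicate 3 it was 0.17, -0.24 and 0.014. These intervals come from the fit and include the spread between libraries. The emetine library without s4U differed from the emetine mean by an amount that followed transcript length (Spearman rho -0.583 across 11514 genes, against 0.0234 in the untreated one), and the part of length in these values was not tested.

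Reads that cross a splice junction were compared for the members, a measure that does not by itself give the amount of unspliced RNA. Over all genes such reads made up 47.0%, 50.5% and 44.3% in the untreated and 42.2%, 46.8% and 45.4% in the emetine libraries. Their share was 34.7 ± 3.98% in untreated and 31.6 ± 3.97% in emetine libraries for GADD45A (SD, n = 3, exact permutation p = 0.4), 26.4 ± 3.70% and 30.1 ± 2.27% for GADD45B (exact permutation p = 0.3), and 40.1 ± 8.79% and 38.3 ± 9.27% for GADD45G (exact permutation p = 0.7). These differences were smaller than or close to the SD between libraries.

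The other genes of the pathway were read from fixed lists. The share of all genes at an unadjusted p under 0.05 is not given here, so such counts are not read as results. Of 12 binding partners of GADD45 proteins, 11 were tested and 0 changed in level in edgeR or DESeq2 (3 had an unadjusted p under 0.05 in edgeR), with a median log2 fold change of -0.05 against 0.03 over all genes. The fraction new fell in 2 of 11 (limma), against 4.83% of all genes tested. It fell in ING1, a chromatin reader, from 59.0% to 31.8%, and in the mitotic kinase AURKA from 15.3% to 7.78%. ERCC5, a repair nuclease that shares its locus with a readthrough gene, had 50 reads in all and was not tested.

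Of the 16 genes of the stress kinase cascade, from MAP3K20 and MAP3K5 through MAP2K4 to the p38 and JNK kinases and the MAPKAP kinases, 0 changed in level in edgeR or DESeq2 and, of the 15 tested, 0 in fraction new in limma. At an unadjusted p under 0.05 there were 1 for the level (MAP3K5, in edgeR) and 0 for the fraction new. The median fraction new of this list in untreated cells was 11.5%.

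Of 18 transcription factors known to act on GADD45 promoters, 3 were raised (edgeR), against 2.64% of all genes tested. JUN, a part of AP-1, had a log2 fold change of 3.10, the zinc finger factor EGR1 of 1.70 and MYC, which represses GADD45A, of 0.90. The others, ATF4 (0.03), FOXO3 (0.29) and RELA (-0.01) among them, did not pass. DESeq2 raised FOXO1 as well. In the 16 tested for fraction new, 0 changed past the test (limma, with 2 at an unadjusted p under 0.05), and JUN was at 84.4% untreated and 90.3% in emetine.

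Of 16 mRNA decay factors, 0 changed in level in edgeR or DESeq2, with 6 at an unadjusted p under 0.05 in edgeR. Those of nonsense-mediated decay were at log2 fold changes of 0.30 (UPF1), 0.38 (UPF2) and 0.55 (SMG1), each with an adjusted p of 0.164 or more. ZFP36L2, which binds AU-rich elements, was the 1 of 15 whose fraction new fell, from 86.5% to 72.5%. Over all genes tested that share was 4.83%, so this count is not read as a trait of the list.

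Of 12 other known targets of nonsense-mediated decay, 2 were raised (edgeR), against 2.64% of all genes tested. These were the stress factor ATF3, by 1.91, and the kinase MAP3K14, by 1.20 on the log2 scale. DDIT3, at 0.84, stood at an adjusted p of 0.0502. DESeq2 raised 5, adding DDIT3, SNHG12 and SNHG15. The fraction new fell in 4 of 12 (limma), against 4.83% of all genes tested. It fell in MAP3K14 from 77.8% to 50.1% and in DDIT3 from 76.7% to 51.6%. In the snoRNA hosts it fell from 87.6% to 60.2% (SNHG12) and from 76.7% to 55.6% (SNHG1). In ATF3 it was 59.2% and 71.4%, which did not pass. The list's median untreated fraction new was 56.4% and its median log2 fold change 0.49.

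The genes nearest to each member were found by the root mean square distance over 6 level values, each as log2(CPM + 0.5) minus the gene's own untreated mean, and 6 logit values of the fraction new. The distance compares the change in level and not the level itself. For GADD45A they were ZNF503, ACTN2, HOXA5, RIPK4 and RGS2, at distances of 0.275 to 0.293. For GADD45B they were SNAI2, TIPARP, MYC, HOXA3 and CCNL1, at 0.323 to 0.380. GADD45B ranked 139 of 10762 by its distance of 0.556 from GADD45A. For GADD45G, where only the 6 levels could be used, GADD45A and GADD45B were nearest of all genes (0.198 and 0.202), followed by ZNF57, TAF1D and HNRNPUL2-BSCL2. The added 0.5 CPM shrinks changes at low levels, such as those of GADD45G (0.756 CPM untreated) and HNRNPUL2-BSCL2 (0.159 CPM). In edgeR the log2 fold changes were 1.80 for GADD45G, 1.24 for GADD45A, 1.30 for GADD45B, 1.02 for TAF1D and 2.50 for HNRNPUL2-BSCL2. A small distance from GADD45G therefore does not mean an equal rise.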

How the data were processed

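Per the study's methods, the authors removed adapters with cutadapt, mapped reads of the 1 h TimeLapse-seq libraries to hg38 with hisat-3n and counted conversions with bam2bakR. The deposited table holds read counts, unnormalized, by gene, T positions and T-to-C conversions. For the 2 h experiment the deposited tables hold the authors' own fold changes and p-values, which were not used, and signal values, the mean of spike-in normalized counts that the authors computed over all 2 h libraries. No member has a row there.

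Counts were summed per gene (19222 genes) and compared with edgeR 4.0.16 (TMM, quasi-likelihood test, default dispersion estimates) in R 4.3.3 over the 13776 genes whose summed count exceeded 100. A fit with robust dispersion estimates was run first and is given as an alternative chosen after seeing the data. The fraction new was the weight of a 2-component binomial mixture, fitted by maximum likelihood in Python 3.11.15 (scipy 1.17.1, pandas 2.3.3), with background rates from the libraries without s4U. Its logit, bounded at 0.001 and 0.999, and the log2(CPM + 0.5) of each read class, were tested in limma 3.58.1 (trend, robust) over the 10763 genes that had 100 reads or more in every library. CPM are TMM-scaled. Adjustment was by Benjamini-Hochberg over all genes tested. Exact permutation tests were two-sided. Alternatives used DESeq2 1.42.0 and mgcv 1.9.3, and both steps were tested on simulated data. Figures were drawn with matplotlib 3.10.9.

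The named genes are the members, the list genes that passed an adjusted p of 0.05 with others of their lists given as values (1 list gene is not reported here), and the 5 nearest genes of each member. The members and lists were chosen with earlier results of these data known. Symbols were matched to GENCODE 44 on GRCh38, the same build as hg38. Intervals of shares, of the fraction new and of folds between single libraries cover counting error only, since no molecular identifiers are described, and those from edgeR fits include the spread between libraries. The labels do not say that replicates came from separate cultures, so p-values measure the spread between these samples, which may be technical.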

Additional observations from a re-analysis of the deposited data

How the results depend on the processing

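The level of each member kept its direction in every alternative run. The calls for GADD45A and GADD45B were kept with other size factors, filters, tests and scalings. Leaving out 1 library at a time, the log2 fold changes ranged from 1.07 to 1.40 (GADD45A), 1.12 to 1.47 (GADD45B) and 1.36 to 2.03 (GADD45G), the logit changes in fraction new from -1.56 to -1.0 (GADD45A) and -1.10 to -0.88 (GADD45B), and labeled GADD45B from 0.73 to 1.04, with the lost calls named in the report. The unlabeled reads of GADD45A and GADD45B passed under all alternatives. GADD45G missed the threshold with RLE size factors (1.77) and got no adjusted p from DESeq2 (1.77, SE 0.42). A fit with robust dispersion estimates, added after seeing the data, gave adjusted p of 0.0145, 0.0124 and 0.0471 for GADD45A, GADD45B and GADD45G. Spike-in scaling moved the median log2 fold change of all genes to 0.71, and relative to it the members stood at 1.25, 1.32 and 1.89.

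Same-numbered libraries did not deviate together (correlations of 0.064, -0.013 and -0.168), so replicate numbers were not taken as pairs. With a replicate block, the levels of GADD45A (1.22, adjusted p = 0.0510) and GADD45G (1.76, 0.0513) missed the threshold and 75 genes were raised and 3 lowered, and 40 genes rose in fraction new. With the block and the length and GC trend removed, 321 genes were lowered.

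In fraction new, GADD45B missed the threshold with a minimum of 50 reads (-1.01, adjusted p = 0.0502). Labeled GADD45A passed with the fraction new centered (0.61), labeled GADD45B missed it with no minimum of reads (0.90) or with reads of 2 or more conversions as labeled (0.67), and unlabeled GADD45G passed with no minimum in limma (1.40). The interaction with s4U, far from the threshold throughout, moved with spike-in scaling to 0.90 in GADD45A and changed sign in GADD45B (0.48) and GADD45G (0.78), and across omissions, added after seeing the data, ran from -0.15 to 0.17 in GADD45A and from -0.61 to 0.055 in GADD45G. The junction share of GADD45G changed sign in reads with 2 or more conversions (0.806 points) and ran from -7.04 to 3.18 points across omissions.

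Raised and lowered genes numbered 820 and 156 (DESeq2), 60 and 0 (spike-in scaling), 742 and 650 (length and GC trend removed) and 646 and 30 (all 8 libraries), and 4 to 1367 and 0 to 525 across omissions, the highest without emetine replicate 3. Genes with a higher and a lower fraction new numbered 14 and 298 (minimum of 50 reads) and 14 and 227 (500 reads), 126 were higher after centering, and omissions gave 10 to 41 and 94 to 2524. The cause of these shifts was not tested. Depth limits GADD45G, with 16 to 27 reads per untreated library with s4U.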
